A study of Homo sapiens with 6 samples.

Results

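The genes described here are the feedback inhibitors of cytokine signalling of the SOCS family, SOCS1 to SOCS7 and CISH, together with PIAS3 and PTPN11, which act on the same pathway. Shares and medians given below for the SOCS family include PIAS3 and PTPN11, and each probe set counts once in them. Every probe set whose only gene symbol in the array annotation is 1 of these 10 genes was taken, which gave 32 of the 41091 probe sets with 1 symbol, and 10 of 19775 genes. RNA was measured on 6 Affymetrix U133 Plus 2.0 arrays in 2 human ovarian carcinoma cell lines, Caov-3 and SKOV-3. Each line was given the anti-IL-6 antibody siltuximab (CNTO328) for 4 h and then interleukin-6 (IL-6) at 30 ng/ml for 1 h, or the same IL-6 alone for 1 h, or was left untreated. Each of these 6 groups was a single array hybridised with the pooled RNA of 3 flasks. Differences within a line therefore have no replicate check, and how precise any value can be is limited by the number of arrays. No siltuximab dose is given in the sources used here, and the antibody without IL-6 was not analysed here.

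IL-6 binds its receptor and gp130, which activates JAK kinases and the transcription factor STAT3. STAT3 and its relative STAT5 switch on SOCS genes within the hour, and the SOCS proteins then bind the activated receptors or kinases through an SH2 domain and block them or, through the SOCS box, pass them to a ubiquitin ligase. SOCS3 is the member that acts on gp130, PIAS3 binds STAT3 and blocks its contact with DNA, and PTPN11 encodes the phosphatase SHP2, which docks at the same gp130 site as SOCS3.

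Values are signal intensities on a linear scale, scaled alike on every array, with a 2% trimmed mean of 500.06 to 500.07. Differences are given as log2 of the signal plus 17.06. Across the probe sets past the filter described below, the correlation r was 0.955 to 0.985 between arrays of 1 line and 0.750 to 0.775 between the lines. The Caov-3 IL-6 array stood apart, with a 5' to 3' ratio of the beta-actin controls of 0.494, against 0.643 to 0.767 on the other 5 arrays, and with 1538 probe sets at least 2-fold below both other arrays of its line, against 142 to 209 on the others. The 5' to 3' ratio of its GAPDH controls did not stand apart, at 1.05, against 0.957 to 1.066 on the other 5 arrays. The part of the Caov-3 IL-6 array in the Caov-3 differences was not tested. The epithelial markers KRT8 and KRT18 were high in both lines. EPCAM was at 22113 to 23634 in Caov-3 and 1728 to 2223 on the arrays labelled SKOV-3. In that order KRT7 was at 14071 to 17211 and 6840 to 8758. KRT19 was at 7263 to 7936 and 4.37 to 57.9, and CDH1 at 4763 to 5094 and 11.0 to 27.5. The ovarian carcinoma marker PAX8 was at 971 to 1056 and 495 to 683. MUC16 was at 593 to 860 and 2.92 to 5.90, and MSLN at 1961 to 2332 and 8.56 to 28.5. WT1 lay at 3.05 to 19.3 over both lines. Of 4 leukocyte markers 1 passed that filter, CD14 at 573 to 667 in Caov-3 and 77.6 to 135 on the arrays labelled SKOV-3. Of 5 fibroblast markers 1 passed it, COL1A1 at 3802 to 4826 in Caov-3 and 217 to 339 on the arrays labelled SKOV-3. SKOV-3 is known for amplified ERBB2, yet the probe set of highest signal for this gene was at 1017 to 1243 in Caov-3 and at 579.9 to 733 on the arrays labelled SKOV-3. These arrays therefore go against a defining marker of their label, and they are called the arrays labelled SKOV-3 throughout.

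The 250 bases before the gene start of CISH and of SOCS3 are shown because STAT proteins bind the palindrome TTCNNNGAA. Sequences are from RefSeq (GRCh38.p14), and the table of promoters used here had an entry for 6 of the 10 genes. A search on both strands is the same search for a palindrome, and capitals mark its matches and those of the shorter TTCNNGAA, searched separately. Matches of the 2 motifs did not overlap.
CISH, minus strand, chr3:50611775-50612024: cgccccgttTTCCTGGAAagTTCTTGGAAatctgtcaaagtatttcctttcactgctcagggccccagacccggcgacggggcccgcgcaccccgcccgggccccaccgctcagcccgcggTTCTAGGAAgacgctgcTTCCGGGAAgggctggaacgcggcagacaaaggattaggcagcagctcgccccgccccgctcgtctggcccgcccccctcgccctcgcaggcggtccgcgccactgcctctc
SOCS3, minus strand, chr17:78360926-78361175: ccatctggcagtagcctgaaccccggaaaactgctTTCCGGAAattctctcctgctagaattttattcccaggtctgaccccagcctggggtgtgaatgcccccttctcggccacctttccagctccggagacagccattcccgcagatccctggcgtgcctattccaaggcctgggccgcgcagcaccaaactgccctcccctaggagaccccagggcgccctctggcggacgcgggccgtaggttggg
The CISH window held 4 matches of TTCNNNGAA, whose first bases lay 241, 230, 129 and 112 bases before the gene start. Of 35116 promoter windows of this length, 6.57% held at least 1 match and 5 held at least 4. The SOCS3 window held 0 matches of TTCNNNGAA and 1 of TTCNNGAA, starting 215 bases before the gene start, which 6.62% of windows held at least once. The window before a second listed start of SOCS3, inside the gene, held neither. The windows of SOCS1, SOCS4, SOCS6 and PIAS3 held neither. A match is a string of letters and not a measured site. Only the 250 bases before each listed start were searched, so a site elsewhere near a gene would be missed.

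Of the 32 probe sets, 25 passed the filter, which asked that at least 2 of the 6 arrays lie at or above their own median. The remaining 7 were 2 of the 4 probe sets of SOCS1, and 1 each of SOCS2, SOCS3, SOCS7, CISH and PTPN11. They lay between 5.90 and 84.2 on all arrays, and are named below where a comparison called them or to complete the account of SOCS3. Levels are compared between arrays for 1 probe set at a time, since different probe sets have different brightness. In bulk RNA a gene expressed by fewer cells and a gene with less RNA per cell cannot be told apart.

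**Figure D1:**
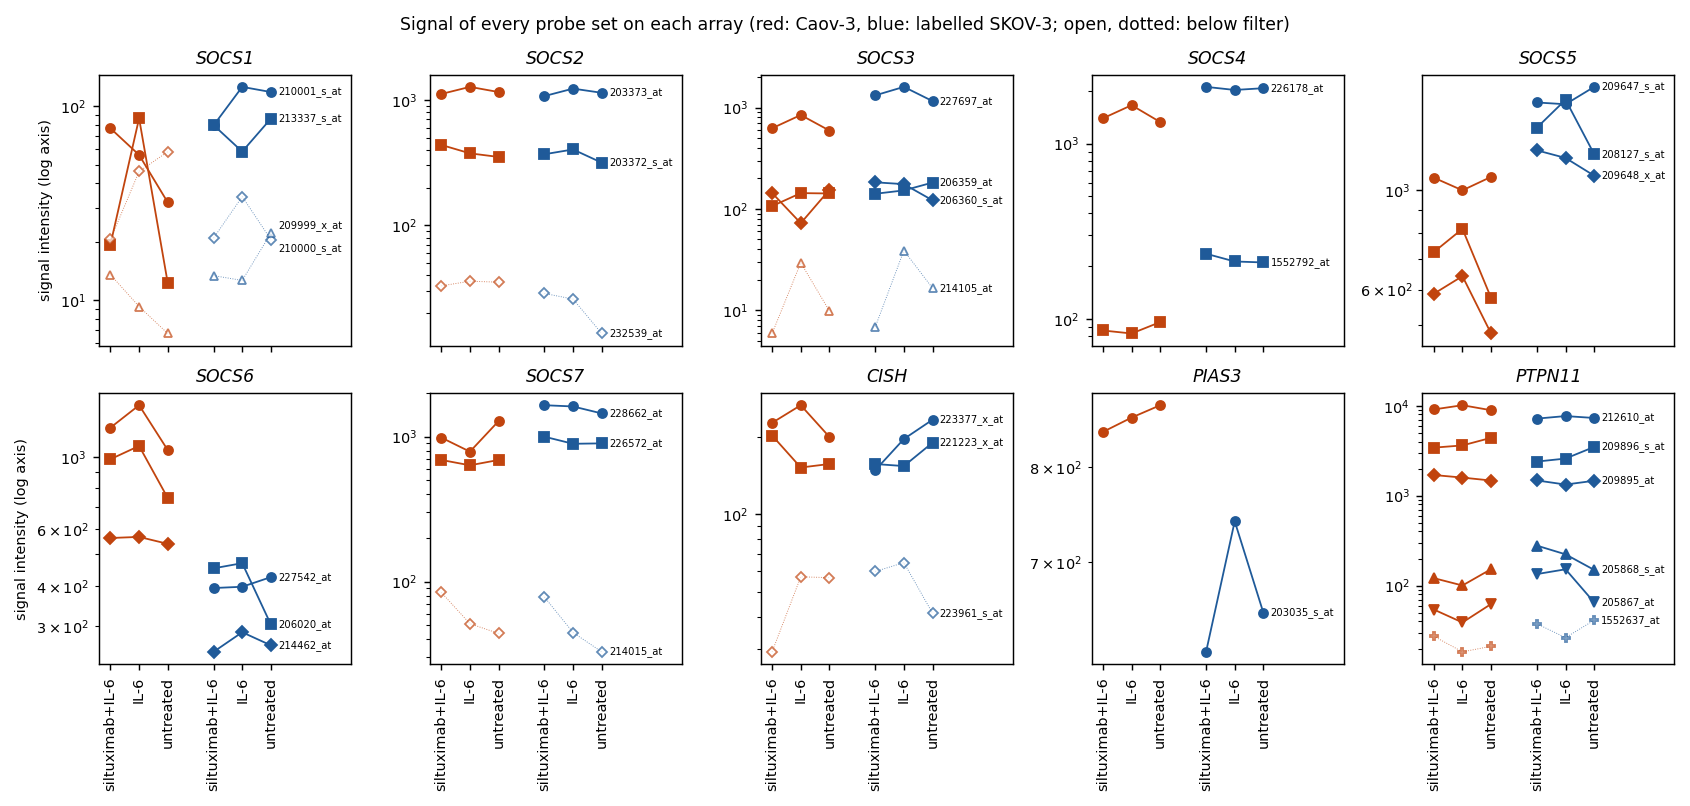
Signal intensity (log axis) of all 32 probe sets of the 10 genes on the 6 arrays, with a panel per gene, Caov-3 in red on the left and the arrays labelled SKOV-3 in blue on the right. Filled symbols mark the 25 probe sets past the filter. The 3 SOCS6 probe sets lie higher in Caov-3 on every array, and those of SOCS4 and SOCS5 lie lower.

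The first comparison was of the lines over all 3 treatments. The largest difference was in SOCS6, an inhibitor of insulin and growth factor receptor signalling, which was higher in Caov-3 on all 3 of its probe sets. SOCS5 and SOCS4, which act on epidermal growth factor receptor signalling, were lower in Caov-3 on all 3 and both of theirs. SOCS7, an inhibitor of insulin and prolactin signalling, was lower on both of its probe sets past the filter. SOCS3 was lower on average on all 3 of its own past the filter, though only 1 passed the test described next. In a limma fit to all 6 arrays with treatment as a block, 14 of the 25 probe sets differed at an adjusted p under 0.05, against 59.1% of all 25423 probe sets tested. Of these, 6 were higher in Caov-3, against 29.8% of all, and 8 were lower, against 29.3%. The share of the SOCS family, 56%, was near that background. The 3 arrays of a line are 3 treatments and not replicates, and the fit had 2 residual degrees of freedom.

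SOCS6 (main probe set 227542_at) had signals of 1229 with siltuximab and IL-6, 1442 with IL-6 and 1049 untreated in Caov-3, against 394, 397 and 426 on the arrays labelled SKOV-3. The lowest Caov-3 array was thus well above the highest of the other line, a log2 difference of 1.56 ± 0.142 (SE, 3 arrays a line, limma adjusted p = 0.00034). Probe set 206020_at was at 983, 1079.8 and 746 in Caov-3, against 453, 469.8 and 304 on the arrays labelled SKOV-3. Probe set 214462_at was at 562, 566 and 539 in Caov-3, against 250.4, 288 and 262. Their log2 differences were 1.17 ± 0.115 and 1.01 ± 0.137, and neither probe set overlapped between the lines.

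SOCS3 (227697_at) had 625 with siltuximab and IL-6, 845 with IL-6 and 594 untreated in Caov-3, against 1321, 1602 and 1159 on the arrays labelled SKOV-3. Each Caov-3 array lay below each array of the other line, with a log2 difference of -0.97 ± 0.0992 (limma adjusted p = 0.000528). The other SOCS3 probe sets past the filter were also lower on average in Caov-3, but by less and without passing the test. Probe set 206359_at was at 107, 143 and 142 in Caov-3, against 141, 152 and 182 on the arrays labelled SKOV-3, a log2 difference of -0.25 ± 0.206. Probe set 206360_s_at was at 144, 72.3 and 154 in Caov-3, against 183, 176 and 122, a log2 difference of -0.37 ± 0.316. Both overlapped between the lines (limma adjusted p of 0.334 and 0.349).

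SOCS5 was measured by 3 probe sets, all without overlap between the lines. Its main probe set 209647_s_at had 1064 with siltuximab and IL-6, 997 with IL-6 and 1069 untreated in Caov-3, against 1565, 1551 and 1695 on the arrays labelled SKOV-3, a log2 difference of -0.61 ± 0.0893. Probe set 208127_s_at was at 727, 819 and 575 in Caov-3, against 1375, 1587 and 1200.3, a log2 difference of -0.96 ± 0.0978. Probe set 209648_x_at was at 587, 643 and 479 in Caov-3, against 1224, 1177 and 1075, a log2 difference of -1.01 ± 0.112. The limma adjusted p of the 3 ran from 0.000519 to 0.00209.

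SOCS4 (226178_at) had 1396 with siltuximab and IL-6, 1658 with IL-6 and 1328 untreated in Caov-3, against 2109.9, 2026 and 2073 on the arrays labelled SKOV-3, a log2 difference of -0.50 ± 0.103 (limma adjusted p = 0.00793). Its second probe set 1552792_at was at 85.8, 82.5 and 95.9 in Caov-3, against 235, 213 and 210.0, a log2 difference of -1.17 ± 0.207 (limma adjusted p = 0.00448). The main probe set lost its call, at an adjusted p of 0.0576 to 0.0648, when either untreated array or either siltuximab array was left out.

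SOCS7 (228662_at) had 984 with siltuximab and IL-6, 787 with IL-6 and 1278 untreated in Caov-3, against 1645, 1613 and 1444 on the arrays labelled SKOV-3, a log2 difference of -0.64 ± 0.171 (limma adjusted p = 0.021). Probe set 226572_at was at 690.0, 634 and 689.7 in Caov-3, against 998, 892 and 898, a log2 difference of -0.46 ± 0.105 (limma adjusted p = 0.0122). Neither overlapped between the lines, and both lost their call when either siltuximab array was left out, at an adjusted p of 0.0945 to 0.102. The main SOCS7 probe set also lost it with an untrended prior variance, at 0.0592.

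SOCS2, an inhibitor of growth hormone signalling that STAT5 induces, was at like levels in both lines. Probe set 203373_at had 1114 with siltuximab and IL-6, 1269 with IL-6 and 1154 untreated in Caov-3, against 1072, 1229 and 1138 on the arrays labelled SKOV-3. The log2 difference was 0.04 ± 0.0902 (limma adjusted p = 0.725). Probe set 203372_s_at was at 437, 375 and 351 in Caov-3, against 369, 403 and 316, a log2 difference of 0.09 ± 0.147. Both probe sets overlapped between the lines.

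CISH, the founding member of the family and a STAT5 target, likewise did not pass the test. Probe set 223377_x_at had 226 with siltuximab and IL-6, 265 with IL-6 and 199 untreated in Caov-3, against 148, 196 and 232 on the arrays labelled SKOV-3, a log2 difference of 0.25 ± 0.22. Probe set 221223_x_at was at 202, 152 and 156 in Caov-3, against 156, 154 and 189, a log2 difference of 0.02 ± 0.213. The lines overlapped on both, and the type of probe set marked by x can also detect related sequences.

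SOCS1, an inhibitor of JAK kinases induced by interferons and IL-6, was dim in Caov-3. Its main probe set 210001_s_at had 77.0 with siltuximab and IL-6, 56.1 with IL-6 and 31.9 untreated in Caov-3, against 79.8, 126 and 119 on the arrays labelled SKOV-3, a log2 difference of -0.83 ± 0.356 (limma adjusted p = 0.0943). Probe set 213337_s_at was at 19.3, 86.8 and 12.3 in Caov-3, against 80.0, 58.4 and 86.4, a log2 difference of -0.92 ± 0.513 (limma adjusted p = 0.171). The Caov-3 IL-6 array alone put the second probe set into overlap. With either IL-6 array left out, its log2 difference was -1.62, at an adjusted p of 0.0107 to 0.0129, and with either untreated array left out it was -0.48, at 0.525 to 0.544. The main probe set was then at -0.50. It was at -0.76 with either IL-6 array left out and at -1.22 with either siltuximab array left out. The second probe set was at -0.68 with either siltuximab array left out.

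PIAS3 (203035_s_at) had 841 with siltuximab and IL-6, 858 with IL-6 and 873 untreated in Caov-3, against 617, 742 and 652 on the arrays labelled SKOV-3. The lines did not overlap, with a log2 difference of 0.35 ± 0.112 (limma adjusted p = 0.0387). This call was lost when either untreated array (log2 difference of 0.32) or either siltuximab array (0.31) was left out, at an adjusted p of 0.158 to 0.215. It was also lost without the filter, at 0.0511, and with an untrended prior variance, at 0.0646.

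PTPN11 was measured by 5 probe sets past the filter, which did not all point the same way. Its main probe set 212610_at had 9086 with siltuximab and IL-6, 10126 with IL-6 and 8905 untreated in Caov-3, against 7185, 7669.7 and 7302 on the arrays labelled SKOV-3, a log2 difference of 0.34 ± 0.0621 without overlap (limma adjusted p = 0.00494, or 0.0559 with an untrended prior variance). Probe set 209896_s_at was at 3419, 3617 and 4396 in Caov-3, against 2393, 2585 and 3484, a log2 difference of 0.44 ± 0.0766 (limma adjusted p = 0.00407), where the lines overlapped because the untreated array was the highest of each. Probe set 209895_at was at 1696, 1588 and 1473 in Caov-3, against 1476, 1328 and 1465, a log2 difference of 0.15 ± 0.0946. The 2 dimmer probe sets stood the other way without passing the test. Probe set 205868_s_at was at 121, 100.3 and 152 in Caov-3, against 278, 223 and 149, and 205867_at was at 54.2, 39.0 and 62.5 in Caov-3, against 134, 152 and 65.1. Their log2 differences were -0.70 ± 0.287 and -0.91 ± 0.371 (limma adjusted p of 0.0822 and 0.0814). With either untreated array left out these 2 passed the test, at log2 differences of -1.06 and -1.34 and an adjusted p of 0.0273 to 0.0358. With either IL-6 array left out they were at -0.54 and -0.57, at an adjusted p of 0.155 to 0.270, and with either siltuximab array left out at -0.50 and -0.82, at 0.247 to 0.342.

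**Figure D2:**
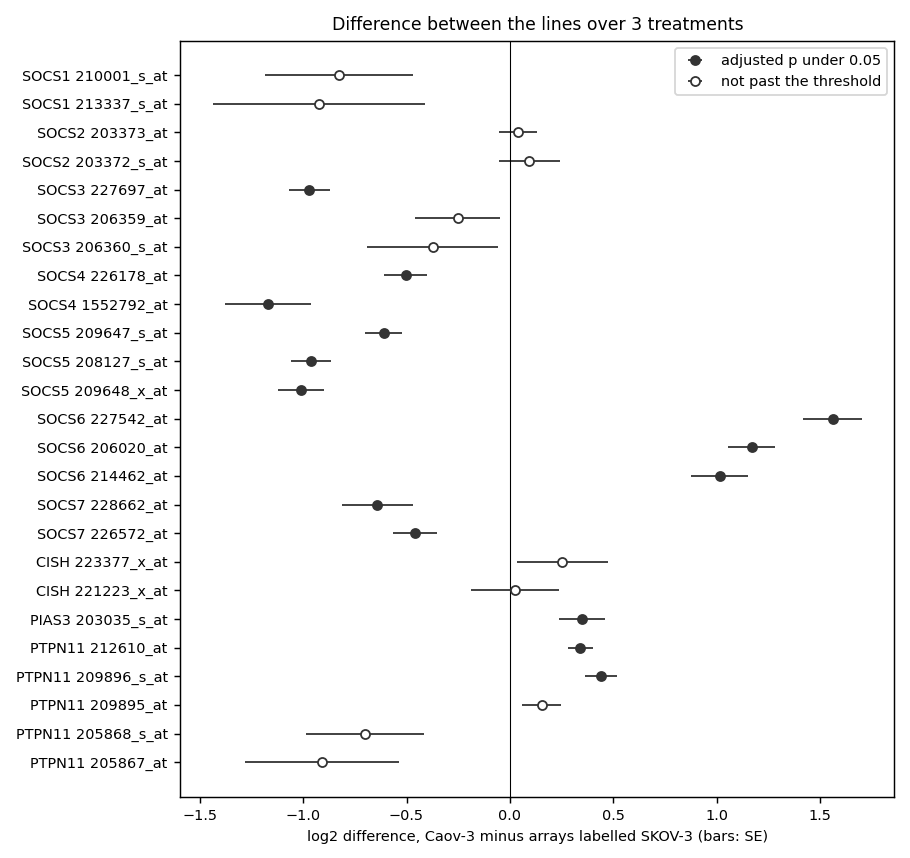
Log2 difference of Caov-3 minus the arrays labelled SKOV-3 over 3 treatments for the 25 probe sets past the filter, with bars of 1 SE from limma. Filled points passed an adjusted p of 0.05. SOCS6 lies farthest to the right, at 1.01 to 1.56, and SOCS4, SOCS5 and SOCS7 lie to the left.

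Counted by overlap, 15 of the 25 probe sets had every Caov-3 array on 1 side of every array labelled SKOV-3, against 66.9% of all probe sets. Of these 5 lay above, against 33.1%, and 10 below, against 33.8%. Among those below, SOCS1 210001_s_at and PTPN11 205867_at were under the median of every Caov-3 array. They passed the filter only through the arrays labelled SKOV-3, where they were higher. The median log2 difference was -0.37 for the SOCS family and -0.02 for all probe sets tested. Of the 14 calls, 9 held under every alternative run and 0 changed direction. These 9 were all probe sets of SOCS5 and SOCS6, 227697_at of SOCS3, 1552792_at of SOCS4 and 209896_s_at of PTPN11.

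IL-6 was then set against untreated, to ask how these inhibitors stood after 1 h of the cytokine. SOCS3 stood above untreated in both lines, at 845 against 594 in Caov-3 and at 1602 against 1159 on the arrays labelled SKOV-3 (227697_at). The log2 folds were 0.50 and 0.46, which for probe sets of like level lay at percentiles 93.7 and 94.8. The poly-A controls, transcripts added to the RNA during labelling, followed the same order of arrays. Their 12 probe sets with IL-6 averaged 1.49 times untreated in Caov-3 and 1.52 times on the arrays labelled SKOV-3, against 1.17 and 1.02 times with siltuximab and IL-6, and their part in these folds was not tested. SOCS6 206020_at (0.52 in Caov-3 and 0.60 on the arrays labelled SKOV-3) and SOCS5 208127_s_at (0.50 and 0.40) had folds of like size, and PTPN11 209896_s_at stood below untreated in both (-0.28 and -0.43). In the limma fit over both lines 0 of the 25 probe sets and 0% of all 25423 passed an adjusted p of 0.05. At an unadjusted p under 0.05 there were 4 of the 25, those just named, against 7.93% of all probe sets. For SOCS3 the fit gave 0.48 ± 0.121 (SE, 2 arrays a treatment, limma unadjusted p = 0.00841, adjusted p = 0.569).

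The 4 probe sets named differ in how their genes are covered. The IL-6 folds of SOCS5 were 0.41 in Caov-3 and 0.13 on the arrays labelled SKOV-3 for 209648_x_at, and -0.10 and -0.13 for the main probe set 209647_s_at. Those of SOCS6 were 0.45 and -0.09 for the main probe set 227542_at, and 0.07 and 0.13 for 214462_at. PTPN11 had folds of 0.19 and 0.07 on its main probe set. No gene with several probe sets past the filter, other than SOCS2, had all of them above untreated in both lines. SOCS2 did so at small folds, 0.14 and 0.11 for 203373_at and 0.09 and 0.33 for 203372_s_at.

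SOCS3 itself was split among its probe sets. Probe set 206359_at stood at 0.01 in Caov-3 and -0.23 on the arrays labelled SKOV-3. Probe set 206360_s_at stood at -0.94 in Caov-3, at 72.3 against 154, and at 0.47 on the arrays labelled SKOV-3, at 176 against 122. Among probe sets of like level, the folds of 206360_s_at lay at percentiles 13.9 in Caov-3 and 86.7 on the arrays labelled SKOV-3. Those of 206359_at lay at 59.7 and 29.8. The mean over all 4 SOCS3 probe sets was 0.09 in Caov-3 and 0.36 on the arrays labelled SKOV-3. The fourth probe set, 214105_at, lay below the median on every array, at 29.4 against 9.85 in Caov-3 and 38.8 against 16.5 on the arrays labelled SKOV-3.

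Counted at 1.5-fold, few probe sets were apart. In Caov-3, 1 of 23 probe sets with an array at or above its median was higher with IL-6, against 6.38% of all probe sets, and 2 were lower, against 14.8%. The higher was SOCS1 213337_s_at, at 86.8 against 12.3. Its untreated signal is below the pseudocount, so that the log2 fold of 1.82 is set by it and was 0.68 with a pseudocount at the median and 2.73 with a pseudocount of 1. The lower were SOCS3 206360_s_at and SOCS7 228662_at. The SOCS7 probe set was at 787 against 1278, a log2 fold of -0.69. All 3 folds rest on the Caov-3 IL-6 array, which had the low beta-actin ratio, and the part of that array in them was not tested. On the Caov-3 siltuximab array SOCS7 228662_at was also below untreated, at 984 (log2 fold of -0.37). The other 2 were there close to untreated, SOCS3 206360_s_at at 144 against 154 and SOCS1 213337_s_at at 19.3 against 12.3. SOCS7 226572_at stood at -0.12, and the main SOCS1 probe set at 0.58 with both arrays below their median.

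On the arrays labelled SKOV-3, 2 of 25 probe sets were at least 1.5-fold higher, against 6.49% of all probe sets, and 0 were lower, against 6.23%. They were SOCS6 206020_at and PTPN11 205867_at, at 152 against 65.1, a log2 fold of 1.04. In Caov-3 that PTPN11 probe set was at 39.0 against 62.5, both below the median of their array. No probe set was at least 1.5-fold apart the same way in both lines, where 0.607% of all probe sets were higher and 0.897% lower in both. None was apart in opposite ways, where 2.61% of all were. The median log2 fold of the SOCS family was 0.09 in Caov-3, against 0.02 for all probe sets, and 0.08 on the arrays labelled SKOV-3, against -0.02 for all.

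CISH, whose promoter window holds the 4 palindromes shown above, had IL-6 folds of 0.38 in Caov-3 and -0.23 on the arrays labelled SKOV-3 for 223377_x_at, and of -0.04 and -0.27 for 221223_x_at. PIAS3 was at -0.02 and 0.18. SOCS4 was at 0.32 and -0.03 on its main probe set and at -0.18 and 0.02 on the other. None of these reached 1.5-fold in either line.

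**Figure D3:**
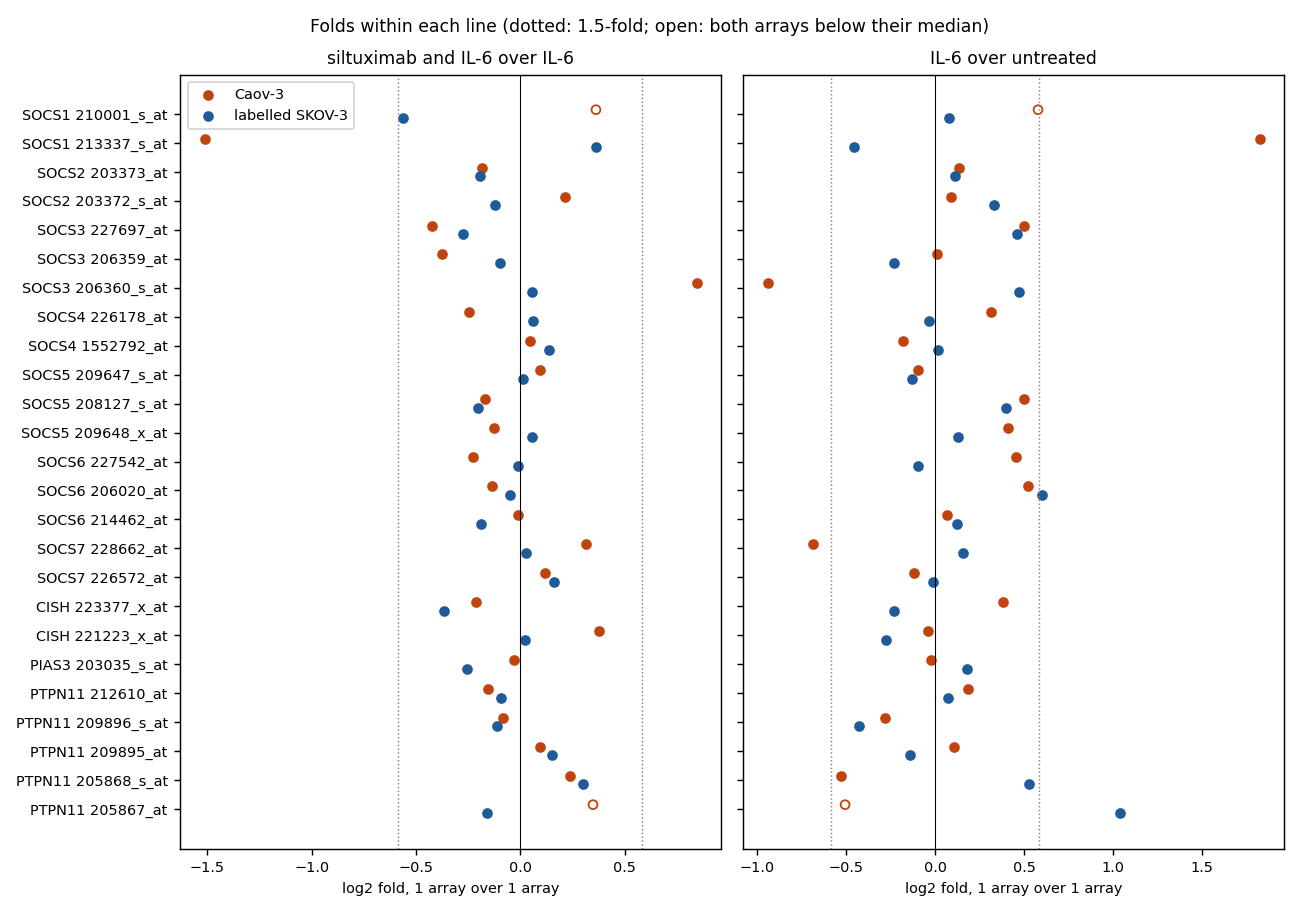
Log2 folds of 1 array over 1 array within each line for the 25 probe sets past the filter, siltuximab and IL-6 over IL-6 on the left and IL-6 over untreated on the right. Red points are Caov-3, blue points the arrays labelled SKOV-3, and dotted lines mark 1.5-fold. SOCS3 227697_at lies left of 0 in the first panel and right of 0 in the second in both lines, short of 1.5-fold.

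Whether siltuximab before IL-6 kept these genes down was asked by setting that array against the IL-6 array. SOCS3 227697_at was at 625 with siltuximab and IL-6 against 845 with IL-6 in Caov-3, a log2 fold of -0.42, and at 1321 against 1602 on the arrays labelled SKOV-3, a log2 fold of -0.28. Against untreated, the siltuximab arrays stood at 0.07 in Caov-3 and 0.19 on the arrays labelled SKOV-3. The fit over both lines gave -0.35 ± 0.121 for siltuximab and IL-6 over IL-6 (SE, 2 arrays a treatment, limma unadjusted p = 0.0298, adjusted p = 0.977). SOCS3 was the only 1 of the 25 probe sets with an unadjusted p under 0.05, against 2.64% of all probe sets. At an adjusted p of 0.05 limma called 0 of the 25 and 0% of all. This comparison shares the IL-6 arrays with the one before it, so that a high or low IL-6 array moves both in opposite ways.

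SOCS5 208127_s_at was at -0.17 in Caov-3 and -0.20 on the arrays labelled SKOV-3, and SOCS6 206020_at at -0.13 and -0.05. With siltuximab SOCS6 206020_at thus remained nearer to its IL-6 level than to untreated, at 983 against 746 untreated in Caov-3 and 453 against 304 untreated on the arrays labelled SKOV-3. PTPN11 209896_s_at did likewise in the other direction, at 3419 against 4396 untreated in Caov-3 and 2393 against 3484 untreated on the arrays labelled SKOV-3. SOCS2 203373_at was at -0.19 in both lines. CISH was at -0.21 and -0.37 for 223377_x_at and at 0.38 and 0.02 for 221223_x_at, and PIAS3 at -0.03 and -0.26.

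At 1.5-fold, 1 of 23 probe sets in Caov-3 was higher with siltuximab, against 13% of all probe sets, and 1 was lower, against 4.29%. They were SOCS3 206360_s_at, at 144 against 72.3, a log2 fold of 0.85, and SOCS1 213337_s_at, at 19.3 against 86.8, a log2 fold of -1.51 that was -0.60 with a pseudocount at the median and -2.11 with a pseudocount of 1. These are 2 of the 3 probe sets apart with IL-6 in Caov-3, and both rest on the same IL-6 array. The other 2 Caov-3 arrays were close to each other, at 144 and 154 for the SOCS3 probe set and 19.3 and 12.3 for that of SOCS1. On the arrays labelled SKOV-3, 1 of 26 probe sets was higher, against 3.54% of all, and 0 were lower, against 5.01%. It was SOCS7 214015_at, which failed the filter of the fit, at 78.3 against 44.6, a log2 fold of 0.63, with 0.57 in Caov-3 at 84.2 against 51.3. No probe set was at least 1.5-fold apart the same way in both lines, where 0.518% of all were higher and 0.254% lower, nor in opposite ways, where 1.63% were.

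Siltuximab and IL-6 was last set against untreated, a comparison that shares arrays with both others. In Caov-3, 0 of 22 probe sets were at least 1.5-fold higher, against 4.42% of all, and 0 were lower, against 4.9%. On the arrays labelled SKOV-3, 3 of 26 were higher, against 4.53% of all, and 1 was lower, against 6.34%. The higher ones were SOCS7 214015_at (log2 fold of 0.94) and the 2 dim PTPN11 probe sets, 205868_s_at (0.83, at 278 against 149) and 205867_at (0.88, at 134 against 65.1). The lower one was CISH 223377_x_at (-0.60, at 148 against 232), which stood at 0.17 in Caov-3. Over both lines limma called 0 of the 25 and 0% of all. At an unadjusted p under 0.05 there were 2 of the 25, SOCS6 206020_at and PTPN11 209896_s_at, against 4.5%.

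The order of the 3 arrays was then read in each line. The IL-6 array was the highest in both lines for 6 of the 25 probe sets, against 12.4% of all probe sets. They were SOCS2 203373_at, SOCS3 227697_at, SOCS5 208127_s_at, SOCS6 206020_at and 214462_at, and PTPN11 212610_at. The IL-6 array was lowest in both lines for 3, SOCS5 209647_s_at, SOCS7 226572_at and CISH 221223_x_at, against 11.8%. SOCS5 stood in both counts with different probe sets.

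**Figure D4:**
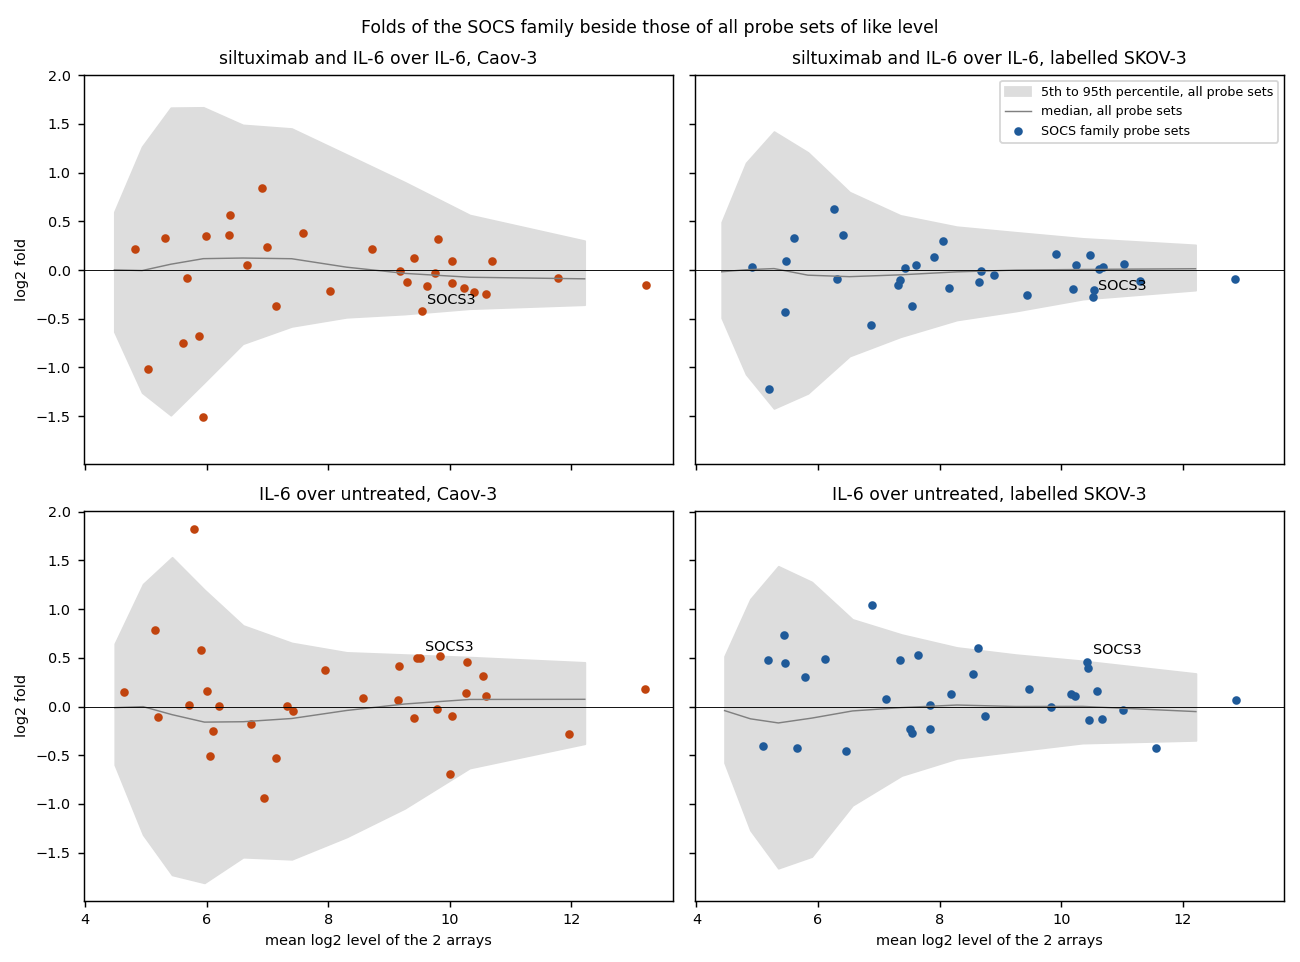
Log2 folds of all 32 probe sets against their mean log2 level, for siltuximab and IL-6 over IL-6 (top) and IL-6 over untreated (bottom), Caov-3 on the left and the arrays labelled SKOV-3 on the right. The grey band holds the 5th to 95th percentile of all probe sets in 10 groups by level. SOCS3 227697_at lies close to the edge of the band in each panel, at percentiles 93.7 and 94.8 with IL-6.

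The main SOCS3 probe set 227697_at was followed most closely over the 6 arrays, each line's mean taken off, by PTGS2, LUC7L, ZNF420, PNPLA8 and PABIR2. Pearson r ran from 0.994 to 0.996, and PTGS2 is the cyclooxygenase of inflammation. The other SOCS3 probe sets were not used here. This is a description over 6 arrays that share their line means, and 171 of 13190 genes had r of at least 0.95. PTGS2 was at 626 with siltuximab and IL-6, 814 with IL-6 and 616 untreated in Caov-3, against 496, 567 and 443 on the arrays labelled SKOV-3. Its log2 folds with IL-6 were 0.39 and 0.34. PABIR2 had folds of 0.62 and 0.47, and LUC7L and PNPLA8 had folds of 0.07 to 0.12. ZNF420 lay at 2.25 to 5.09 on the arrays labelled SKOV-3, below the pseudocount, so that its order there cannot be read.

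The rest of the pathway was read from 1 probe set a gene, that of highest mean. Of 13 genes of the IL-6 receptor and JAK-STAT pathway past the filter, 9 differed between the lines, 4 higher in Caov-3 (IL6, JAK1, JAK3 and TYK2) and 5 lower (IL6R, IL6ST, JAK2, STAT5B and STAT6). IL6R, the receptor's binding chain, was at 25.0 to 60.0 in Caov-3, below the median of each array, and at 728 to 864 on the arrays labelled SKOV-3, through which it passed the filter. IL6 was at 3500 to 3703 in Caov-3 and at 540.1 to 781 on the arrays labelled SKOV-3, a log2 difference of 2.43 ± 0.12. Of 7 other negative regulators 6 differed, with PTPN6, PIAS1 and PIAS2 higher and PTPN1, PIAS4 and CBL lower in Caov-3. All 6 SOCS box partners differed, with RBX1, the ring finger protein of cullin ligases, 2.40 ± 0.06 higher on the log2 scale and CUL2 also higher, and ELOB, ELOC, CUL5 and RNF7 lower. Of 12 early STAT3 targets 11 differed, 7 higher (JUNB, PIM1, CEBPD, CEBPB, BCL6, IER3 and IRF1) and 4 lower (FOS, EGR1, MYC and MCL1). These calls come from the fit to all 25423 probe sets. Over all 13190 genes read this way from it 64.7% differed, 35.5% higher and 29.2% lower in Caov-3.

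With IL-6 and with siltuximab limma called 0 genes in each of these 4 lists. At 1.5-fold with IL-6, the receptor and JAK-STAT list had 0 of 13 genes higher and 1 lower in Caov-3, and 1 higher and 1 lower on the arrays labelled SKOV-3. The early targets had 0 of 12 higher and 1 lower in Caov-3, and 1 higher and 0 lower on the arrays labelled SKOV-3, and the other lists had 0 either way. Over all genes 6.09% were higher and 7.34% lower in Caov-3, and 3.91% higher and 6.09% lower on the arrays labelled SKOV-3. STAT3 stood in opposite ways, at 832 with IL-6 against 2521 untreated in Caov-3 and at 2527 against 1330 on the arrays labelled SKOV-3. With siltuximab and IL-6 this STAT3 probe set was at 1254 in Caov-3 and 1463 on the arrays labelled SKOV-3. Its Caov-3 fold with IL-6 rests on the array with the low beta-actin ratio, whose part was not tested. The main SOCS3 probe set stood above untreated in both lines, unlike the other 2 past the filter. JAK3, a kinase of lymphoid cytokine receptors, was at 0.19 and -0.87. Among early targets ICAM1 was at -0.67 in Caov-3 and -0.13 on the arrays labelled SKOV-3, and JUNB at 0.18 and 0.61. Of the other negative regulators the largest folds were those of CBL, at 0.40 and 0.18, and PTPN6, at 0.06 and -0.42. Of the SOCS box partners they were those of ELOB, at 0.21 and -0.18, and ELOC, at 0.32 and 0.04. The median IL-6 fold of the early targets was -0.11 in Caov-3 and 0.01 on the arrays labelled SKOV-3.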

How the data were processed

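RNA of 2 cell lines was measured on 6 arrays, grouped by sample title. Each deposited value is the linear signal intensity of a probe set. Affymetrix Expression Console and MAS5 made it, per the submitters' processing notes, with no version given there. The arrays had been scaled to a common trimmed mean, and no detection calls were used. The array annotation gave 1 gene symbol to 41091 of 54675 probe sets, several to 1801 and none to 11721, beside 62 controls.

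Values were taken to log2 after a pseudocount of 17.06 (percentile 20 of all values of probe sets with 1 symbol). Probe sets with at least 2 of 6 arrays at or above their median (25423) entered a limma 3.58.1 fit (R 4.3.3) with line and treatment as factors, a trended prior variance and 2 residual degrees of freedom, so that its residual holds any difference in treatment effect between the lines. P-values were adjusted by Benjamini-Hochberg over all of them. Log2 folds between single arrays of a line were counted at 1.5-fold among probe sets with an array at or above its median, without a p-value. Percentiles and spreads of folds were taken in 10 groups of probe sets by level.

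A gene's main probe set was that of highest mean log2 value. Every probe set of the 10 genes was to be accounted for, those past the filter on every array. From each of 4 pathway lists the genes called by the fit and the 2 of largest mean absolute IL-6 fold were named. The 5 genes most correlated with the main SOCS3 probe set were named too. The members and lists were chosen with earlier results of these data known. Some list members are not analysed here. The fit was run on simulated data, with IL-6 changes alike in both lines and far larger than the folds described here. That run cannot tell whether folds of the size seen here would be called. Alternatives were quantile normalization, pseudocounts of 1 and of the median (percentile 50), no filter, 1 probe set a gene, an untrended prior variance and each array left out. Figures and promoter searches used Python 3.11.15, pandas 2.3.3 and matplotlib 3.10.9.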

Additional observations from a re-analysis of the deposited data

How the results depend on the processing

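The count of 14 probe sets that differed between the lines ran from 10 to 15 with each array left out, beside 43.6% to 62.3% of all probe sets, where the other line's array of that treatment no longer bears on the difference. With the fit redone on 1 probe set a gene, where fewer were tested, it was 7 (of 10). In that redone fit 67.6% of all genes differed. The counts of 0 for IL-6 and for siltuximab over both lines were 0 (lowest and highest) with each array left out and 0 under every other alternative run. With either IL-6 array left out, the fit holds 1 IL-6 array, set against levels fitted from the remaining arrays of both lines. SOCS3 227697_at then had a log2 difference for IL-6 of 0.53 without the IL-6 array labelled SKOV-3. Without the Caov-3 IL-6 array it was 0.43. Its IL-6 folds kept their direction under each scaling, pseudocount and filter.

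The number of probe sets at least 1.5-fold apart is given with the share of all probe sets apart under the same setting. With IL-6 in Caov-3 it was 3 (21.2%) as reported and 1 (13.4%) with 1 probe set a gene. With IL-6 on the arrays labelled SKOV-3 it was 2 (12.7%) as reported, 1 (12.8%) after quantile normalization, 0 (4.66%) with a pseudocount at the median and 0 (10%) with 1 probe set a gene. With siltuximab in Caov-3 it was 2 (17.3%) as reported, 1 (9.55%) with a pseudocount at the median, 5 (25%) without a filter and 0 (10.2%) with 1 probe set a gene. With siltuximab on the arrays labelled SKOV-3 it was 1 (8.54%) as reported, 0 (2.39%) with a pseudocount at the median, 2 (10.4%) with a pseudocount of 1, 2 (18.5%) without a filter and 0 (6.73%) with 1 probe set a gene. The cause was not tested beyond the fewer or further probe sets these settings count. The line difference of CISH 221223_x_at, which was not called, turned to -0.015 after quantile normalization and to -0.13 with either siltuximab array left out, within a range of -0.13 to 0.16 over the arrays left out. No pairing of replicates was possible because each group held 1 array and the labels give no replicate numbers to pair by. The fit does set arrays of the same treatment, and of the same line, against each other through its 2 factors.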
